A study of Mus musculus with 24 samples.

Results

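The genes described here make, degrade, carry and sense retinoic acid in the hippocampus of mice with and without the coactivator CBP. They are 9 of the 55471 genes in the deposited table: the retinal dehydrogenases Aldh1a1, Aldh1a2 and Aldh1a3, the degrading enzyme Cyp26b1, the binding protein Crabp1, and the receptors Rara, Rarb, Rxra and Rxrg. They were chosen by name and by their genotype and housing changes in these same mice, so their values are given as a description, without p-values, and where a gene is said to be called by the fit over all genes this describes the choice. A further 51 genes of the retinoid pathway were listed by their roles, and the 39 of them with enough counts were tested.

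Retinoic acid is made from vitamin A in 2 steps, first from retinol to retinal and then from retinal to retinoic acid by the Aldh1a enzymes. Enzymes of the Cyp26 family break it down, and Crabp proteins carry it in the cytoplasm. It binds retinoic acid receptors, which sit on DNA as pairs with retinoid X receptors and recruit coactivators such as CBP and p300. In the adult brain it is known for its part in synaptic scaling and in hippocampal plasticity.

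RNA was sequenced from the hippocampus of 12 female C57BL/6 mice (C57BL/6J in the study's methods), 3 in each of 4 groups. CBP-ifKOs carried floxed Crebbp and the CaMKIIα-creERT2 transgene, which is active in excitatory forebrain neurons, and control littermates lacked the transgene. All 12 mice received tamoxifen, were 3 to 6 months old, and lived either in standard cages (SC) or in an enriched environment (EE). In the study's methods EE meant larger boxes with more mice, running wheels, toys, tubing and natural materials, in a layout that was changed regularly. Because only excitatory neurons recombine, the other cells of the tissue keep CBP, and the recombined allele still gives a truncated protein. Nothing in the sample descriptions says that mice of a group came from separate litters, so the spread between mice is the only error measured here.

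The libraries held between 26874015 and 27971488 counts in the 6 control mice and between 28582210 and 37448388 in the 6 CBP-ifKOs. None of the 148570 nonzero counts of the CBP-ifKOs was odd, against 86334 of 158233 in the control mice, and results were therefore also computed with the CBP-ifKO counts halved. Levels are given in CPM, counts scaled by TMM to a common library size over the 12 mice, in which 3 counts correspond to between 0.0775 and 0.116 CPM. If each CBP-ifKO read was counted 2 times, which was not tested, low counts printed for these mice stand for fewer reads than their number, and the 4 counts of Aldh1a3 in 2 EE-housed CBP-ifKOs would fall below the 3-count limit. Crebbp, the targeted gene, lay at 73.9, 81.9 and 70.7 CPM in SC-housed control mice and at 50.5, 51.5 and 50.0 CPM in SC-housed CBP-ifKOs. In EE it lay at 72.3, 77.1 and 69.6 CPM in control mice and at 44.5, 48.3 and 46.7 CPM in CBP-ifKOs, so that every library was on the side its label gives. The deletion removes part of the transcript in part of the cells. Markers of hippocampal excitatory neurons were high, with Camk2a at 4092 ± 77 CPM and Slc17a7 at 1239 ± 94 CPM (SD, n = 3) in SC-housed control mice. One library stood apart, the EE-housed control mouse 1, in which 8 choroid plexus markers summed to 160 CPM, against 31.4 to 38.5 CPM in the other libraries.

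Promoters of the members were looked up because Rarb is known to be driven by retinoic acid through an element in its own promoter, and such elements are bound by the receptors listed above. RefSeq windows of 300 bases on GRCm38.p6, from 250 bases before to 50 after the start site, matched 8 of the 9 genes, with 14 windows in all. The window nearest to the start of the principal transcript is shown for 5 genes, namely Rarb for its element and the others for their differences between groups described below. Capitals mark any of 4 half-sites of the receptors (AGGTCA and GGTTCA, or AGTTCA and GGGTCA) and the letters TGACG, each searched on both strands, so that a half-site of the opposite strand appears as its reverse complement. TGACG is the core of the cAMP response element that CREB, the partner of CBP, binds. All are written along the strand of the gene.
Rarb, chr14:16575427-16575726, minus strand: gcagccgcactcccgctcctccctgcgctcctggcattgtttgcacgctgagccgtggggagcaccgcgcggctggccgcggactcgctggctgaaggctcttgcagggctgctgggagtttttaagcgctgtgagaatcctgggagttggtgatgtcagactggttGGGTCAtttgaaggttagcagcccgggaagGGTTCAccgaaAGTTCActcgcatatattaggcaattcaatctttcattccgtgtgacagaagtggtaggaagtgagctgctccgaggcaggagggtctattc
Aldh1a1, chr19:20601718-20602017, plus strand: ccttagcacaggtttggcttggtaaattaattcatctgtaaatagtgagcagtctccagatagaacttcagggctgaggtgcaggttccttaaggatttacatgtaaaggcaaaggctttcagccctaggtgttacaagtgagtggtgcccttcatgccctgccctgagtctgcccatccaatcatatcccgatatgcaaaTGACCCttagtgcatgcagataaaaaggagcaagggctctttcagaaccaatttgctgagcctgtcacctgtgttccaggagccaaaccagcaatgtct
Cyp26b1, chr6:84593761-84594060, minus strand: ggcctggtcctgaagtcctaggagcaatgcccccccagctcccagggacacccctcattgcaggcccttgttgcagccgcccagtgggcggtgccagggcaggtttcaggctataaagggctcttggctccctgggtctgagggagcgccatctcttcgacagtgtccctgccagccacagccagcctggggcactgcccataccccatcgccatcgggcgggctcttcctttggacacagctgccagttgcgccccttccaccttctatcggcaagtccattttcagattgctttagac
Rara, chr11:98937468-98937767, plus strand: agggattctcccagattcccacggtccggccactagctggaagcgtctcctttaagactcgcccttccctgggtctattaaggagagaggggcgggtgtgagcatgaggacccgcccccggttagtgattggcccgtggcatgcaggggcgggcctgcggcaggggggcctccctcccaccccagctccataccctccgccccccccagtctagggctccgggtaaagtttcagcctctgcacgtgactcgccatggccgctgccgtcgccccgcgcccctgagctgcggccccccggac
Rxrg, chr1:167598112-167598411, plus strand: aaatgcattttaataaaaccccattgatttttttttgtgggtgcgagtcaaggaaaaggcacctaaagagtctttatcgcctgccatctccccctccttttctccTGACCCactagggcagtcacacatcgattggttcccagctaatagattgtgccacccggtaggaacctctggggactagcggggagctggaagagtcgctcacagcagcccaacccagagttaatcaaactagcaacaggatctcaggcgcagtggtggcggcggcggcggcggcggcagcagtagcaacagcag
In the Rarb window, 2 half-sites in capitals stand 5 bases apart and form a direct repeat (DR5), the classical retinoic acid response element, between 53 and 37 bases before the start site. A DR5 was found in 1 of the 14 windows and in 0.0974% of 32851 promoter windows of the same length. Any of the 4 half-sites was found in 7 of the 14 windows and in 43.7% of all windows, so a single half-site sets no member apart. The letters TGACG were found in 2 of the 14 windows, both of Rara, and in 20.8% of all windows, and the full palindromic cAMP response element in 0 of the 14 and in 1.79% of all. A match is a sequence description and not a binding site, and the windows of Cyp26b1 and Rara shown above held none of these letters.

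Levels were compared between genes per base of transcript, as TPM (transcript abundance per length) computed from the counts and gene lengths. Over the 12 mice Aldh1a1 had the highest level, with 50.9 ± 7.2 TPM (SD, n = 12), and Rxra followed with 23.8 ± 2.4 TPM. Aldh1a2 (9.59 ± 4.89 TPM), Rara (9.17 ± 1.82 TPM), Rxrg (8.19 ± 2.0 TPM) and Cyp26b1 (8.10 ± 1.91 TPM) did not differ from each other beyond their spread. Crabp1 (2.46 ± 0.76 TPM), Rarb (1.15 ± 0.13 TPM) and Aldh1a3 (0.680 ± 0.476 TPM) were lowest, and each overlapped with the next in single mice. Among the retinal dehydrogenases, Aldh1a1 had the highest and Aldh1a3 the lowest mean level in each of the 4 groups.

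**Figure D1:**
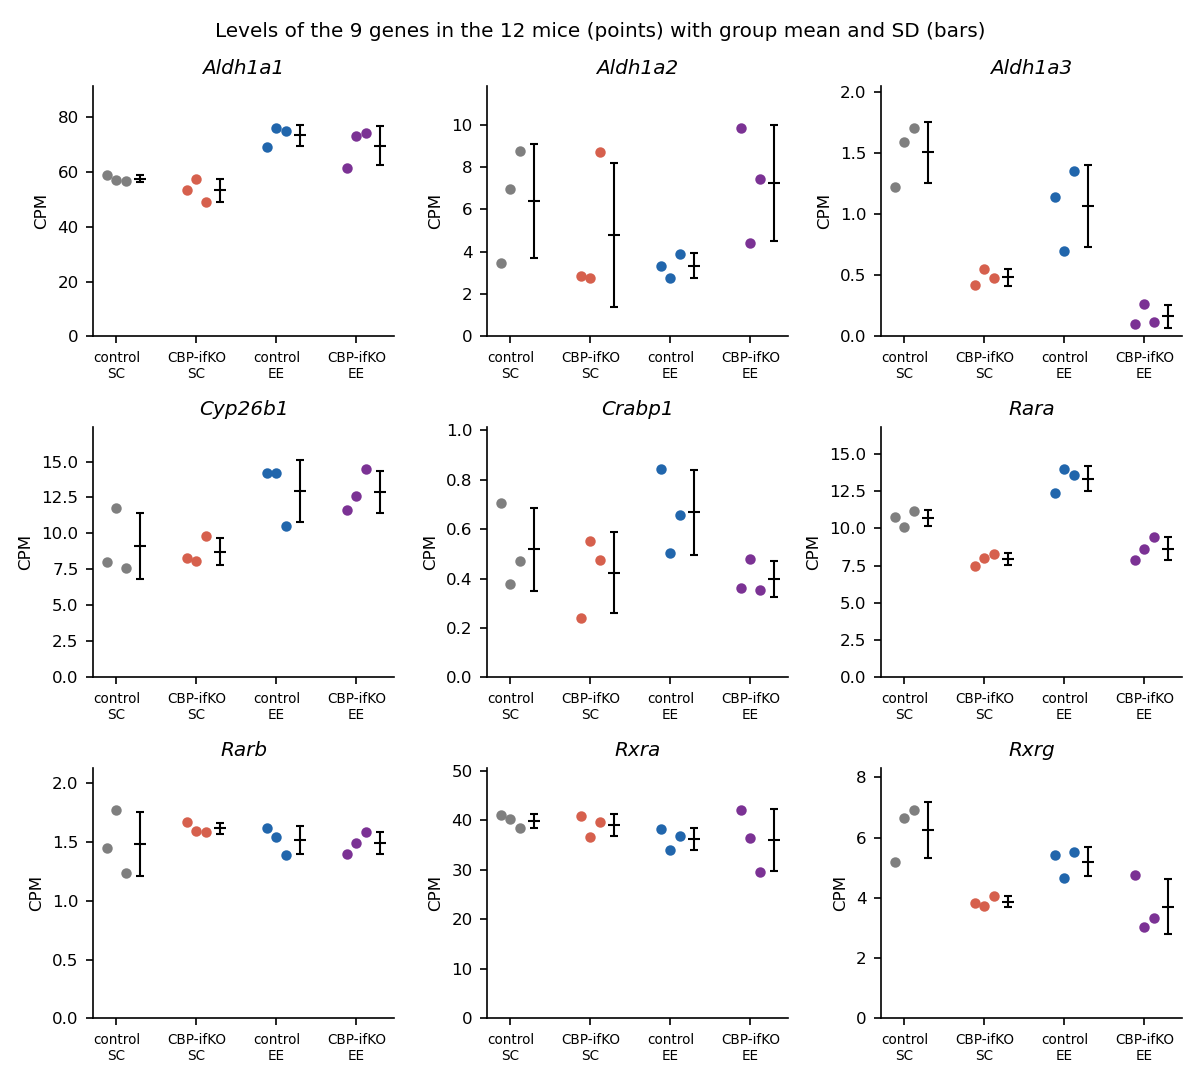
Level in CPM (y axes, from 0) of the 9 genes in the 12 mice, by group (x axes). Points are mice and bars give the group mean and SD. Aldh1a1 is higher in both EE groups, and Aldh1a3 and Rara are lower in both CBP-ifKO groups.

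Synthesis begins with Aldh1a1 (ENSMUSG00000053279, chromosome 19, 20492715 to 20643465, plus strand of GRCm38), the enzyme that oxidizes retinal to retinoic acid and, in dopamine neurons, aldehydes of dopamine. In SC-housed mice it lay at 58.9, 57.2 and 56.7 CPM in control mice and at 53.4, 57.6 and 49.1 CPM in CBP-ifKOs. In EE-housed mice it lay at 69.1, 76.2 and 74.9 CPM in control mice and at 61.5, 73.1 and 74.3 CPM in CBP-ifKOs. Every EE-housed mouse of a genotype was above every SC-housed mouse of that genotype, while the genotypes overlapped in both housings. Over all genes tested, 9.11% did not overlap between housings in control mice and 15.9% in CBP-ifKOs, and 25.9% and 25.3% did not overlap between genotypes in SC and EE, beside 3, 4, 3 and 4 of the 9 genes, and nothing is read from these counts. With EE the log2 fold change was 0.35 ± 0.08 (SE) in control mice and 0.38 ± 0.08 in CBP-ifKOs, and the difference between these was 0.03 ± 0.11. With genotype it was -0.11 ± 0.07 in SC and -0.07 ± 0.08 in EE. Averaged over genotypes the change with EE was 0.37 ± 0.05. Of the stretches of 50 bases in its transcripts, 3.06% also occur in Aldh1a7, a close relative with group means of 0.101 to 0.336 CPM, and reads that match both equally would be left out by the filter on mapping quality.

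Markers of other brain regions were examined because Aldh1a1 is best known from midbrain. The markers of midbrain dopamine neurons Pitx3 and En1 reached at most 2 counts in any library, the thalamic marker Gbx2 at most 1, and the striatal marker Six3 at most 11. The 6 midbrain dopamine markers summed to between 15.8 and 20.9 CPM over all mice, and the housings overlapped in control mice (19.7 to 20.9 CPM in SC, 15.8 to 20.7 CPM in EE) and, by one mouse, in CBP-ifKOs (17.2 to 17.6 CPM and 17.5 to 18.8 CPM). Without Slc18a2, the most abundant of them, the CBP-ifKOs did not overlap (5.85 to 7.2 CPM in SC, 7.47 to 8.98 CPM in EE). Of these, Slc6a3, the dopamine transporter, rose in CBP-ifKOs in EE (1.82 ± 0.37 on the log2 scale, edgeR, adjusted p = 0.0185), and in the same comparison the striatal marker Ppp1r1b fell by 0.53 ± 0.12 and the thalamic marker Prkcd fell by 0.50 ± 0.10 (edgeR, adjusted p = 0.0276 and 0.0197). The 8 striatal markers summed to 51.3 to 73.6 CPM and the 6 thalamic markers to 62.1 to 82.5 CPM over the 12 mice. With housing none of these lists had a call by edgeR. Over the 12 mice the 5 genes most like Aldh1a1 among 15008 genes, by Pearson correlation of log2 CPM, were Wipf3 (r = 0.942, rho = 0.944), Bok (r = 0.919, rho = 0.909), Hunk (r = 0.906, rho = 0.853), Olfml2b (r = 0.899, rho = 0.860) and Mtch2 (r = 0.895, rho = 0.839). Wipf3, for one, had mean levels of 382 and 354 CPM in SC and of 472 and 437 CPM in EE in control mice and CBP-ifKOs. The points share groups of mice, and within groups r ranged from 0.605 to 0.854.

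Aldh1a2 (ENSMUSG00000013584, chromosome 9, 71215789 to 71296243, plus strand) makes retinoic acid chiefly in the meninges of the adult brain. It lay at 3.49, 6.98 and 8.78 CPM in SC-housed control mice, at 2.87, 2.77 and 8.73 CPM in SC-housed CBP-ifKOs, at 3.34, 2.74 and 3.91 CPM in EE-housed control mice and at 9.86, 4.43 and 7.46 CPM in EE-housed CBP-ifKOs. Mice of one group differed by up to several-fold, and the genotypes overlapped in SC but not in EE, with 3.91 CPM as the highest control and 4.43 CPM as the lowest CBP-ifKO. The log2 fold change with genotype was -0.40 ± 0.41 in SC and 1.13 ± 0.26 in EE, and the interaction was 1.52 ± 0.58, which was not called with the filter on low counts and was called without it (1.52 ± 0.23). The call in EE was lost without any 1 of the 3 control mice (1.0 to 1.26), without the CBP-ifKO 1 (0.84) or the CBP-ifKO 3 (1.11), and in a fit of all 12 mice (1.12 ± 0.42). In bulk tissue, fewer cells of a type and less RNA per cell cannot be told apart, and 10 meningeal fibroblast markers were therefore summed. Their summed level was 110 to 196 CPM in SC-housed control mice, 80.2 to 177 CPM in SC-housed CBP-ifKOs, 114 to 120 CPM in EE-housed control mice and 225, 88.2 and 113 CPM in the EE-housed CBP-ifKOs 1, 2 and 3. Dcn alone made up 38.9% to 71.7% of this sum. Without it the other 9 markers summed to 42.9, 32.6 and 49.7 CPM in EE-housed control mice and to 129, 48.0 and 69.2 CPM in EE-housed CBP-ifKOs, of which the second overlapped with the control mice. The correlation of the full sum with Aldh1a2 over the 12 mice was r = 0.838 (rho = 0.692), 0.725 without the 2 mice farthest from the median and 0.916 within groups, and that of the 9 markers was r = 0.976 (rho = 0.972), 0.976 and 0.972. Of the 10 markers, Fmod and Col1a1 rose in EE-housed CBP-ifKOs, by 2.09 ± 0.46 and 0.72 ± 0.17 on the log2 scale (edgeR, adjusted p = 0.0269 and 0.0393), and 9 of the 10 had counts in every library, the exception being Igf2 at 0 counts in the SC-housed CBP-ifKO 1. Dcn, by contrast, lay at 77.4, 82.7 and 64.8 CPM in EE-housed control mice and at 95.9, 40.2 and 44.0 CPM in EE-housed CBP-ifKOs. The part of the meninges in the Aldh1a2 values was not tested.

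**Figure D2:**
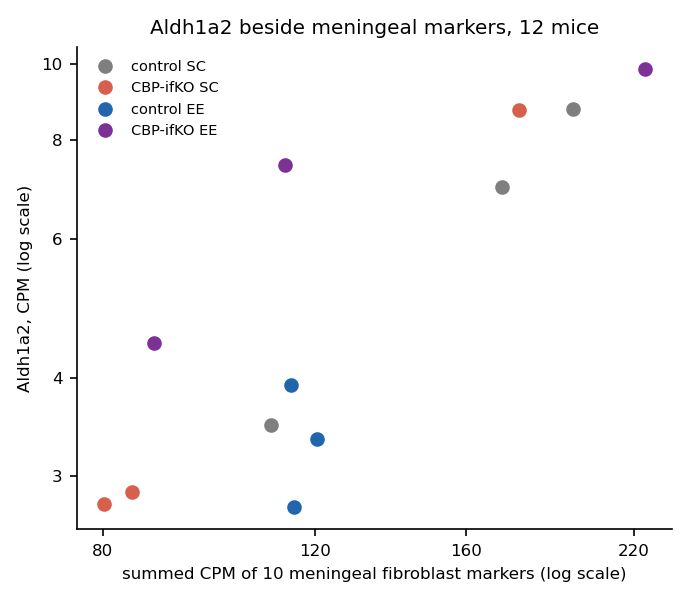
Level of Aldh1a2 in CPM (y axis, log scale) against the summed CPM of 10 meningeal fibroblast markers (x axis, log scale) in the 12 mice, colored by group. The 4 mice with the highest marker sums, 171 to 225 CPM, all have an Aldh1a2 level of 6.98 CPM or more. The EE-housed CBP-ifKO 3 has a level of 7.46 CPM at a sum of 113 CPM.

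Aldh1a3 (ENSMUSG00000015134, chromosome 7, 66390890 to 66427517, minus strand), the third retinal dehydrogenase, is rare in this tissue. It had 33, 42 and 47 counts in SC-housed control mice and 14, 16 and 18 in SC-housed CBP-ifKOs, which are 1.22, 1.59 and 1.70 CPM against 0.418, 0.553 and 0.476 CPM. In EE it had 31, 18 and 37 counts in control mice and 4, 10 and 4 in CBP-ifKOs, or 1.14, 0.694 and 1.35 CPM against 0.103, 0.267 and 0.117 CPM. The genotypes did not overlap in either housing. The log2 fold change was -1.64 ± 0.30 in SC and -2.67 ± 0.44 in EE, the largest of the 9 genes in both, and the interaction was -1.04 ± 0.54. The housing change was -0.50 ± 0.32 in control mice and -1.54 ± 0.43 in CBP-ifKOs. At these counts the size of the change depends on a few reads, and it spanned -1.76 to -1.53 in SC and -3.22 to -2.42 in EE over the alternatives. DESeq2 gave changes of -1.64 ± 0.41 and -2.70 ± 0.58 but no adjusted p at these counts. The calls of Aldh1a3 were lost without the SC-housed control mouse 3 (-1.53 ± 0.37) and without the EE-housed control mouse 3 (-2.46 ± 0.53).

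Cyp26b1 (ENSMUSG00000063415, chromosome 6, 84571414 to 84593908, minus strand) oxidizes retinoic acid and so limits where it acts. It lay at 8.01, 11.8 and 7.62 CPM in SC-housed control mice and at 8.30, 8.09 and 9.79 CPM in SC-housed CBP-ifKOs. In EE it lay at 14.2, 14.2 and 10.5 CPM in control mice and at 11.6, 12.6 and 14.5 CPM in CBP-ifKOs. In CBP-ifKOs the housings did not overlap, and in control mice the SC-housed mouse 2 was above the EE-housed mouse 3. With EE the log2 fold change was 0.51 ± 0.16 in control mice and 0.56 ± 0.16 in CBP-ifKOs, while that with genotype was -0.06 ± 0.16 in SC and 0.00 ± 0.13 in EE. Averaged over genotypes Cyp26b1 stood at 0.53 ± 0.11 and was called with DESeq2 (0.54), without a filter on low counts (0.53) and without the SC-housed control mouse 2 (0.65). Its correlation with the summed thalamic markers was r = 0.333 (rho = 0.322) over the 12 mice, 0.079 without the 2 mice farthest from the median and 0.826 within groups, and the part of thalamic tissue was not tested.

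Crabp1 (ENSMUSG00000032291, chromosome 9, 54764748 to 54773110, plus strand), which carries retinoic acid to its degradation, had 8 to 23 counts in every library, with those of the CBP-ifKOs all even as described above. It lay at 0.705, 0.377 and 0.472 CPM and at 0.239, 0.553 and 0.476 CPM in SC-housed control mice and CBP-ifKOs, and at 0.844, 0.501 and 0.658 CPM and at 0.361, 0.480 and 0.352 CPM in EE. Its log2 fold change with genotype was -0.30 ± 0.43 in SC and -0.73 ± 0.35 in EE. The genotypes overlapped in SC and not in EE, where 0.501 CPM was the lowest control and 0.480 CPM the highest CBP-ifKO, which at 13 and 18 counts is not a resolved difference.

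Among the receptors, Rara (ENSMUSG00000037992, chromosome 11, 98927818 to 98974942, plus strand), the receptor through which retinoic acid acts in synaptic scaling, was lower in CBP-ifKOs. It lay at 10.8, 10.1 and 11.2 CPM in SC-housed control mice and at 7.47, 8.02 and 8.26 CPM in SC-housed CBP-ifKOs. In EE it lay at 12.4, 14.0 and 13.6 CPM in control mice and at 7.85, 8.64 and 9.45 CPM in CBP-ifKOs. The genotypes did not overlap in either housing. With genotype the log2 fold change was -0.43 ± 0.10 in SC and -0.62 ± 0.11 in EE, and with EE it was 0.32 ± 0.10 in control mice and 0.13 ± 0.10 in CBP-ifKOs, with an interaction of -0.19 ± 0.14. In SC the call of Rara was lost without any 1 of 5 of the 6 mice, with changes of -0.47 to -0.39, and in EE without the control mouse 3 (-0.60 ± 0.13).

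Rxrg (ENSMUSG00000015843, chromosome 1, 167598384 to 167639623, plus strand), a retinoid X receptor of restricted expression, lay at 5.19, 6.64 and 6.93 CPM in SC-housed control mice and at 3.82, 3.74 and 4.08 CPM in SC-housed CBP-ifKOs. In EE it lay at 5.43, 4.67 and 5.52 CPM in control mice and at 4.75, 3.04 and 3.35 CPM in CBP-ifKOs. The genotypes did not overlap in SC and overlapped in EE, where the CBP-ifKO 1 was above the control mouse 2. The log2 fold change was -0.69 ± 0.15 in SC and -0.48 ± 0.19 in EE, and the interaction was 0.20 ± 0.24, so the 2 values do not differ beyond their error. In SC the call of Rxrg was lost without the control mouse 3 (-0.60 ± 0.17) or without any 1 of the CBP-ifKOs, with changes of -0.73 to -0.66. The correlation of Rxrg with the summed meningeal markers over the 12 mice was r = 0.593 (rho = 0.615), 0.564 without the 2 mice farthest from the median and 0.834 within groups, and the EE-housed CBP-ifKO 1 had the highest such sum, 225 CPM. With Dcn left out of the sum these values were r = 0.273 (rho = 0.294), 0.0834 and 0.801. The correlation of Rxrg with the summed astrocyte markers was r = 0.732 (rho = 0.720), 0.490 and 0.0897. The part of these cells in the Rxrg values was not tested.

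Rxra (ENSMUSG00000015846, chromosome 2, 27676440 to 27762957, plus strand) and Rarb (ENSMUSG00000017491, chromosome 14, 16430839 to 16819156, minus strand) had small changes in all comparisons. Rxra, the most abundant receptor of the 4, ranged from 29.6 to 42.1 CPM over the 12 mice, with log2 fold changes of -0.03 ± 0.07 and -0.00 ± 0.11 with genotype in SC and EE and of -0.13 ± 0.10 and -0.12 ± 0.10 with EE in control mice and CBP-ifKOs. Rarb, the gene with the response element shown above, ranged from 1.23 to 1.77 CPM, with log2 fold changes of 0.12 ± 0.22 and -0.02 ± 0.21 with genotype and of 0.03 ± 0.21 and -0.12 ± 0.20 with EE. Single comparisons still did not overlap, with Rxra lower in EE in control mice (33.9 to 38.3 CPM against 38.4 to 41.0 CPM) and Rarb lower in EE in CBP-ifKOs (1.39 to 1.58 CPM against 1.59 to 1.67 CPM), and Rarb rests on 34 to 60 counts in a library. Rarb followed the sum of the thalamic markers over the 12 mice (r = 0.910, rho = 0.832, 0.804 without the 2 mice farthest from the median, 0.929 within groups). With Rora, the most abundant of these markers, left out of the sum these values were r = 0.577, rho = 0.462, 0.302 and 0.947. With the oligodendrocyte sum Rarb had r = 0.660, rho = 0.706, 0.499 and 0.777. Without Mbp, the most abundant of those markers, it had r = 0.751, rho = 0.727, 0.510 and 0.858. The part of thalamic tissue and of oligodendrocytes in the level of Rarb was not tested. Of its exon bases, 34.1% lie within exons of Top2b on the opposite strand, and since the strand setting of the counting is not given in the sources used here, reads of the 2 genes cannot be told apart there.

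**Figure D3:**
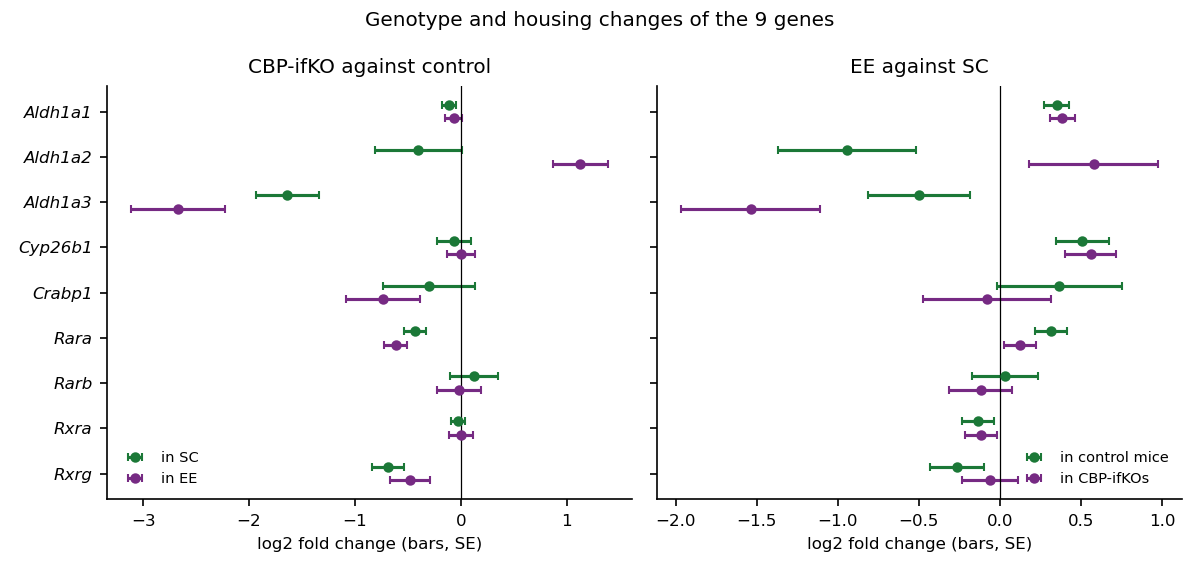
Log2 fold changes with SE (x axes) of the 9 genes, for CBP-ifKO against control in SC and EE (left) and for EE against SC in control mice and CBP-ifKOs (right). Aldh1a3, Rara and Rxrg lie below 0 by more than their SE in both housings on the left. Aldh1a1, Cyp26b1 and Rara lie above 0 by more than their SE in both genotypes on the right.

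Calls were made with edgeR's quasi-likelihood test and Benjamini-Hochberg adjustment over all genes, at an adjusted p below 0.05 and, for housing, an absolute log2 fold change above 0.5. All 9 genes passed the count filter in every comparison. With genotype, 3 of the 9 were called in SC, all lower (Aldh1a3, Rara and Rxrg), where 5.52% of 17532 genes were called. In EE, 3 were called, Aldh1a3 and Rara lower and Aldh1a2 higher, where 4.57% of 17625 genes were called. Since the same comparisons chose the members, these counts describe the choice. With housing none of the 9 was called by edgeR in control mice, in CBP-ifKOs or averaged over genotypes, where 0%, 0.011% and 0.0329% of 18251 genes were called. This depended on the filter on low counts: without it 80, 121 and 87 genes were called, among them Aldh1a2 (-0.94 ± 0.17 and 0.58 ± 0.16 on the log2 scale) and Cyp26b1 (0.51 ± 0.12 and 0.56 ± 0.12) in control mice and CBP-ifKOs, and Cyp26b1 (0.53 ± 0.09) and Aldh1a3 (-1.02 ± 0.29) averaged over genotypes. Without the fold threshold 0%, 0.011% and 0.164% of genes were called, and Aldh1a1, for whose housing change the set was chosen, was among the 30 called averaged over genotypes, though not without the EE-housed CBP-ifKO 3 (0.34 ± 0.06). At an unadjusted p below 0.05, 4, 3 and 4 of the 9 passed in these comparisons, beside 768, 1567 and 1723 of the 18251 genes, and DESeq2 called 0, 0 and 1, the last being Cyp26b1. Since the genotype and housing changes of the 9 chose them, their counts here and for the interaction below describe the choice. The interaction had 0 calls among all genes (0%) with edgeR and with DESeq2, against 574 genes and 1 of the 9 members at an unadjusted p below 0.05. Without the filter edgeR called 110 genes for the interaction, Aldh1a2 among them. The median log2 fold change of the 9 was -0.30 with genotype in SC and -0.07 in EE, beside 0.00 and 0.01 over all genes tested.

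Of the 51 other genes of the pathway, 39 passed the count filter, and Lrat, Stra6l, Rbp2, Rdh1, Rdh16, Dhrs9, Adh7, Bco1, Aldh1a7, Aldh8a1, Cyp26c1 and Vdr did not. With genotype 4 of the 39 fell and 0 rose in each housing, with a median log2 fold change of -0.03 in SC and -0.04 in EE. Over all genes 5.52% were called in SC, 704 of the 968 lower, and 4.57% in EE, 623 of the 805 lower. One of the 4 is Crebbp itself, which fell by 0.58 ± 0.06 in SC and by 0.64 ± 0.06 in EE (edgeR, adjusted p = 0.000542 and 0.000407). With housing 0 of the 39 were called by edgeR in the main fit, with 3, 6 and 6 at an unadjusted p below 0.05 in control mice, in CBP-ifKOs and averaged over genotypes, beside the 768, 1567 and 1723 genes given above, and DESeq2 called 0, 1 and 1, in both cases Rdh13. With EE, Rdh13 stood at -0.26 ± 0.16 in control mice, -0.81 ± 0.15 in CBP-ifKOs and -0.54 ± 0.11 averaged over genotypes (the last 2 with edgeR, adjusted p = 0.121 and 0.0844). In CBP-ifKOs this change was also called without a filter, with the replicate block and from the 6 CBP-ifKOs alone. The interaction had 0 calls among the 39 with either tool and 4 genes at an unadjusted p below 0.05.

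Among uptake, storage and carriers, 2 of 7 fell in SC and 1 of 7 in EE. Rlbp1, a carrier of retinal best known from glia of the retina, had a mean of 25.1 ± 1.7 CPM (SD, n = 3) in SC-housed control mice and of 17.9 ± 0.54 CPM in SC-housed CBP-ifKOs, with no overlap. It fell by 0.49 ± 0.08 on the log2 scale in SC (edgeR, adjusted p = 0.00436), and its value in EE was -0.34 ± 0.10 (edgeR, adjusted p = 0.0904). Stra6, the membrane receptor that takes retinol from its carrier in blood, lay at 16.5, 16.4 and 17.1 CPM in EE-housed control mice and at 11.9, 11.0 and 11.9 CPM in EE-housed CBP-ifKOs. It fell by 0.51 ± 0.09 in EE (edgeR, adjusted p = 0.00858) and stood at -0.10 ± 0.10 in SC (edgeR, adjusted p = 0.599). The interaction of Stra6 was -0.42 ± 0.13 (edgeR, adjusted p = 0.9998), so the housings are not shown to differ. The call of Stra6 was lost without the EE-housed control mouse 3 (-0.49 ± 0.11).

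Ttr, the carrier of retinol-binding protein and thyroid hormone made by the choroid plexus, fell by 1.70 ± 0.12 in SC (edgeR, adjusted p = 2.20e-05). It lay at 26.0, 21.4 and 20.7 CPM in SC-housed control mice and at 7.17, 6.02 and 7.73 CPM in SC-housed CBP-ifKOs. In EE it lay at 1128, 19.6 and 8.81 CPM in control mice and at 32.3, 4.05 and 22.8 CPM in CBP-ifKOs, and the first of these is the library with high choroid plexus markers. The log2 fold change in EE was -4.28 ± 1.43 (edgeR, adjusted p = 0.122) and was 0.49 ± 0.55 without that mouse. In a fit of all 12 mice the SC change of Ttr was -1.70 ± 1.31 and was not called, while that in EE was -4.29 ± 1.21 and was called. The 8 choroid plexus markers summed to 33.6 to 36.7 CPM in SC-housed control mice and to 33.3 to 37.9 CPM in SC-housed CBP-ifKOs, and none of the 6 that were tested there was called by edgeR. Kl alone made up 43% to 81.2% of this sum over the 12 mice. The other 7 summed to 9.61, 11.8 and 11.6 CPM in SC-housed control mice and to 7.35, 6.64 and 9.16 CPM in SC-housed CBP-ifKOs and did not overlap, with the CBP-ifKOs lower as for Ttr, and the median log2 fold change of the 6 tested was -0.32. Over the 12 mice Ttr and the sum of all 8 had r = 0.889 (rho = 0.413), 0.0616 without the 2 mice farthest from the median and 0.919 within groups. With the sum of the 7 without Kl these values were r = 0.975 (rho = 0.881), 0.889 and 0.975. The part of the choroid plexus in the Ttr values was not tested. Crabp2, a carrier that hands retinoic acid to its receptor, followed the meningeal markers as Aldh1a2 did (r = 0.850, rho = 0.692, 0.721 without the 2 mice farthest from the median, over 12 mice, and r = 0.973 with Dcn left out of the sum). It stood at -0.64 ± 0.57 in SC and 1.56 ± 0.52 in EE (edgeR, adjusted p = 0.579 and 0.119). Rbp4, the carrier of retinol in blood, stood at 0.09 ± 0.13 in SC and 0.18 ± 0.16 in EE (edgeR, adjusted p = 0.744 and 0.575).

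None of the 11 retinol and retinal enzymes that passed the filter was called by genotype, with 0 in both housings by edgeR and by DESeq2. Rdh10, which makes the retinal used for retinoic acid synthesis, stood at -0.22 ± 0.08 in SC and 0.07 ± 0.09 in EE, and Dhrs3, which turns retinal back into retinol, at -0.19 ± 0.13 and -0.15 ± 0.12 (edgeR, adjusted p between 0.149 and 0.723). A few further dehydrogenases had positive values in SC, with Rdh13 at 0.46 ± 0.13, Rdh12 at 0.37 ± 0.15 and Rdh11 at 0.19 ± 0.07 (edgeR, adjusted p = 0.0659, 0.196 and 0.131). In EE they stood at -0.08 ± 0.14, 0.46 ± 0.15 and 0.26 ± 0.08 (edgeR, adjusted p = 0.801, 0.105 and 0.0921). Rdh13 was called in SC without a filter (0.44), with the replicate block (0.48) and without any 1 of the 3 control mice (0.28 to 0.56). Cyp26a1, the degrading enzyme most directly induced by retinoic acid in many tissues, had 8 to 46 counts in a library and stood at -0.60 ± 0.44 and 0.45 ± 0.57 (edgeR, adjusted p = 0.486 and 0.715). It followed the meningeal markers (r = 0.903, rho = 0.769, 0.818 without the 2 mice farthest from the median, 0.933 within groups, over 12 mice, and r = 0.725 and 0.484 without those 2 mice with Dcn left out of the sum), and their part in its level was not tested. Rarg and Rxrb, the receptors outside the list of 9, stood at 0.08 ± 0.10 and -0.06 ± 0.06 in SC and at 0.03 ± 0.12 and -0.05 ± 0.07 in EE (edgeR, adjusted p between 0.607 and 0.933).

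Of the 9 RXR partners that passed the filter, 1 fell in each housing. This was Thra, the thyroid hormone receptor most abundant in brain, which pairs with retinoid X receptors. It fell by 0.20 ± 0.05 in SC and by 0.30 ± 0.06 in EE (edgeR, adjusted p = 0.0341 and 0.0206), from 879 to 922 CPM to 760 to 813 CPM in SC. The call of Thra was lost without any 1 of 5 of the 6 SC-housed mice, with changes of -0.22 to -0.17, and in EE without the control mouse 3 (-0.24), the CBP-ifKO 1 (-0.31) or the CBP-ifKO 3 (-0.27).

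**Figure D4:**
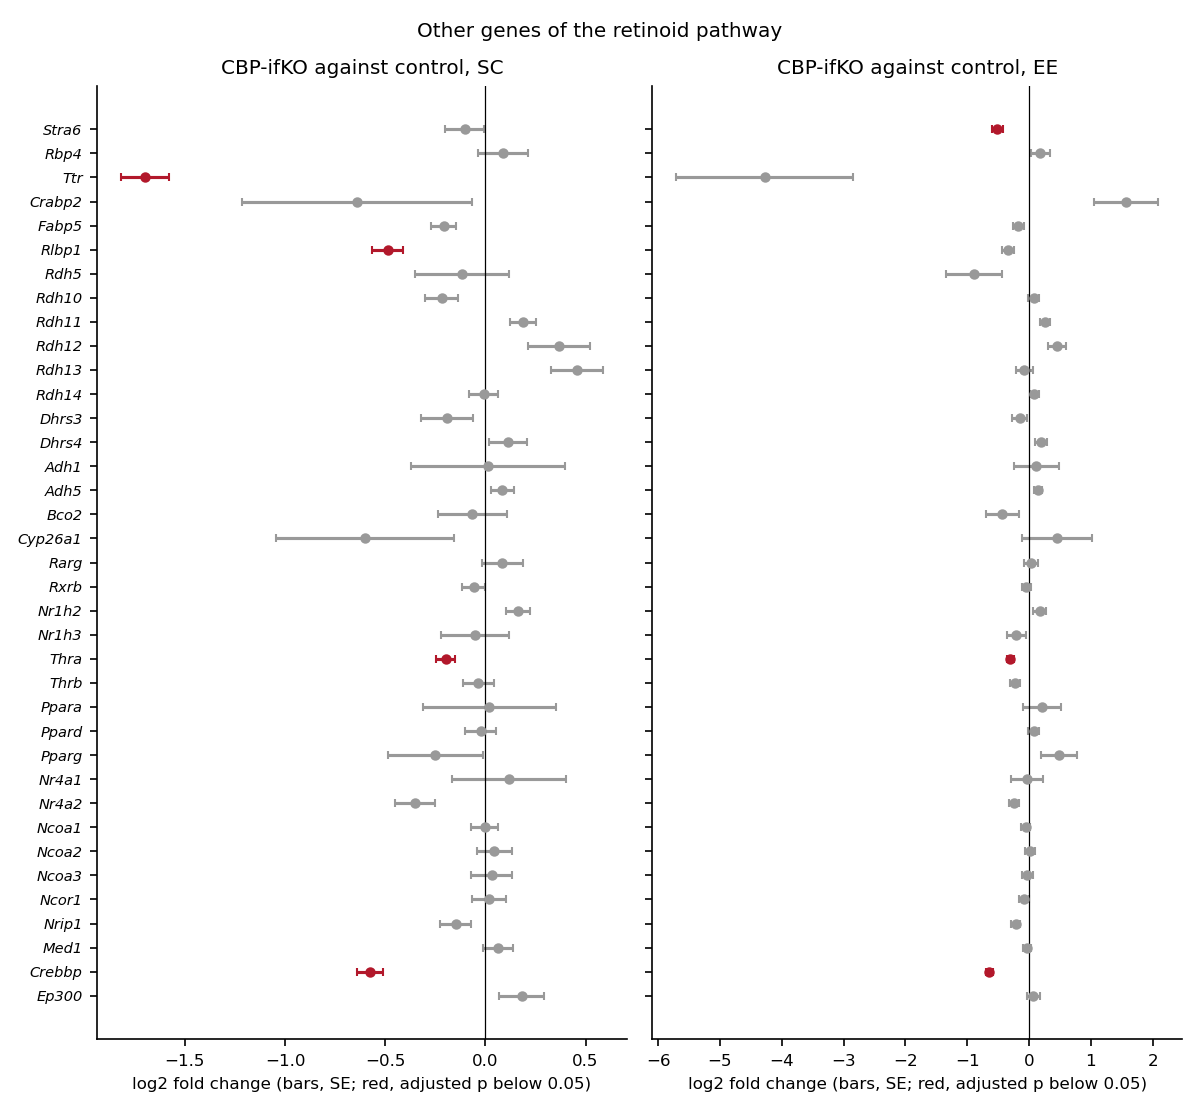
Log2 fold changes with SE (x axes, with different ranges) of 37 other pathway genes that passed the count filter, for CBP-ifKO against control in SC (left) and EE (right). Red points, 4 in SC and 3 in EE, had an adjusted p below 0.05 with edgeR, and all lie below 0.

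Markers of other cell types were summed beside these genes, and no list was tested as a whole. The 5 astrocyte markers summed to 1477 to 1653 CPM in control mice and 1425 to 1446 CPM in CBP-ifKOs in SC, and to 1445 to 1497 CPM and 1292 to 1365 CPM in EE. The 5 microglial markers summed to 229 to 233 CPM and 204 to 226 CPM in SC, and to 215 to 234 CPM and 195 to 202 CPM in EE. None of these 10 genes was called by edgeR in either housing. The 6 interneuron markers summed to 851 to 917 CPM in control mice and 795 to 832 CPM in CBP-ifKOs in SC, and to 870 to 946 CPM and 820 to 855 CPM in EE. The 5 endothelial markers summed to 161 to 166 CPM and 136 to 148 CPM in SC, and to 139 to 159 CPM and 132 to 147 CPM in EE. The genotypes overlapped for the endothelial sum in EE and for none of the other sums just given, where 25.9% of all genes tested in SC and 25.3% in EE did not overlap. Without Slc1a3, the most abundant of the astrocyte markers, that sum overlapped in EE (652 to 769 CPM in control mice, 677 to 752 CPM in CBP-ifKOs). Single markers did not all follow their sum: Vip, an interneuron marker, lay at 21.6 to 26.0 CPM in EE-housed control mice and at 26.2 to 30.3 CPM in EE-housed CBP-ifKOs. Over the 12 mice, which differ by group, Aldh1a3 followed the microglial sum (r = 0.900, rho = 0.846, 0.374 within groups) and the astrocyte sum (r = 0.820, rho = 0.832, -0.235 within groups, and r = 0.510 without Slc1a3). Rara followed the interneuron sum (r = 0.752, rho = 0.762, -0.142 within groups), with r = 0.823 and -0.120 within groups without Gad1, the most abundant interneuron marker. With the excitatory neuron sum Rara had r = 0.521 (rho = 0.490, 0.279 within groups). Without Camk2a, the most abundant of those markers, it had r = 0.842 (rho = 0.832, 0.505 within groups). Of the 8 markers of excitatory neurons 3 fell in each housing, namely Wfs1, Fibcd1 and Spink8, of which Fibcd1 fell by 0.39 ± 0.07 in SC and by 0.62 ± 0.07 in EE (edgeR, adjusted p = 0.00626 and 0.00119), where 5.52% and 4.57% of all genes were called. The remaining 5, Camk2a, Slc17a7, Prox1, Neurod6 and Zbtb20, were not called, and the 8 summed to 6168 to 6466 CPM in control mice and 6009 to 6394 CPM in CBP-ifKOs in SC, and to 6195 to 6700 CPM and 5603 to 6393 CPM in EE, overlapping in both. Camk2a alone made up 64.6% to 68.3% of this sum, and the other 7 summed to 2180 to 2357 CPM in control mice and 1938 to 2101 CPM in CBP-ifKOs in EE, without overlap, and to 2091 to 2291 CPM and 2002 to 2120 CPM in SC, with overlap. The median log2 fold change of the 8 was -0.19 in SC and -0.21 in EE. In SC, Sst of 6 interneuron markers and Kdr of 5 endothelial markers fell, by 0.35 ± 0.08 and 0.43 ± 0.09 (edgeR, adjusted p = 0.0324 and 0.0222), and none of 5 oligodendrocyte markers was called in either housing. The part of these cell types in the changes of Aldh1a3, Rara, Rxrg, Rlbp1 and Thra was not tested.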

How the data were processed

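Hippocampal RNA of 12 female mice was sequenced, with 2 runs per mouse that count as 1 replicate. Per the submitters' processing notes and the study's methods, single-end reads of 50 bp went through Trim Galore 0.6.4 and STAR 2.6.1 against GRCm38, alignments of mapping quality 10 or less were dropped, and Rsubread assigned the rest to exons. The authors deposited the resulting counts unnormalized, 1 column for each mouse, with each gene's length in bases. The strand setting is not given in the sources used here.

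Here the counts went into edgeR 4.0.16 (R 4.3.3) with its default steps (expression filter, TMM, quasi-likelihood test, Benjamini-Hochberg adjustment at 0.05). Genotypes were compared in the 6 mice of a housing, and housing and interaction in all 12 mice with 1 coefficient per group. Housing calls also needed an absolute log2 fold change above 0.5. SE is the unshrunken log2 fold change over the root of the F statistic. Positions came from the GENCODE annotation and promoters from RefSeq, both on GRCm38. Each fit was first tested on simulated data holding known fold changes. Alternatives were DESeq2 1.42.0, its size factors, other filters, the replicate block, halved CBP-ifKO counts, other sets of mice, no fold threshold and leaving out each mouse. The members and gene lists were chosen with earlier results of these data known. Named genes were the 9 members, pathway genes called in any comparison, 10 further pathway genes of central role, Crebbp, and the 5 genes most like Aldh1a1 with a mean of at least 1 CPM. Rdh11, Rdh12, Rdh13, the pathway genes under the filter and the called marker genes were named after their values were seen. Of the pathway genes counted, 2 are not reported here by name. Marker sums were also computed without the most abundant marker of each list, an alternative chosen after seeing the data. Floors cover counting error only.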

Additional observations from a re-analysis of the deposited data

How the results depend on the processing

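Counts of called genes moved most with the filter on low counts, the tool and the mice used, and the cause was not tested. For genotype in SC, 968 genes and 4 pathway genes became 1512 and 7 without a filter, and ranged from 399 to 1908 and from 3 to 8 with 1 mouse left out. For genotype in EE, 805 and 4 became 1677 and 11 without a filter, 1293 and 7 in a fit of all 12 mice, and 1296 genes with DESeq2, and ranged from 285 to 1016 and from 1 to 5 with 1 mouse left out. For housing in control mice, 0 and 0 became 80 and 2 without a filter, 6 genes with DESeq2 and 1 gene from the 6 control mice alone, and ranged from 0 to 3 genes with 1 mouse left out. For housing in CBP-ifKOs, 2 and 0 became 121 and 3 without a filter, 22 and 1 with DESeq2, 12 and 1 from the 6 CBP-ifKOs alone and 0 genes with halved counts, and 0 genes were called with any 1 mouse left out. For housing averaged over genotypes, 6 and 0 became 87 and 2 without a filter, 14 and 1 with DESeq2 and 30 genes without the fold threshold, and ranged from 3 to 9 and from 0 to 1 with 1 mouse left out. The interaction had 110 genes and 3 pathway genes without a filter and 0 in the main analysis.

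Mice of the same number deviated together with correlations of 0.0335 to 0.305 for housing in control mice and -0.0463 to 0.0863 in CBP-ifKOs. For genotype they were -0.0472 to 0.102 in SC and 0.0341 to 0.124 in EE. Mice of different number had -0.251 to 0.0724 for housing in control mice and -0.105 to 0.144 in CBP-ifKOs. For genotype these had -0.145 to 0.0764 in SC and -0.125 to 0.00632 in EE. For genotype in EE every same-number pair lay above every other pair, and elsewhere the ranges overlapped. The main fits did not pair the mice, and whether the numbers pair them was not tested. Genes called by genotype went from 968 to 1041 in SC and from 805 to 1089 in EE with the replicate block. With the replicate block, 10 genes and 1 pathway gene were called for housing in CBP-ifKOs and 1 pathway gene for housing averaged over genotypes, and Crabp2 in EE (1.44) was called by genotype.

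With 1 mouse left out, the genotype change of 6 of the pathway genes named in the text, none of them called, turned sign. In EE these were Ttr (-4.85 to 0.49, the latter without the control mouse 1), Cyp26a1 (-0.52 to 0.85, without the CBP-ifKO 1), Rarg (-0.051 to 0.11, without the CBP-ifKO 1), Rxrb (-0.10 to 0.0096, without the control mouse 3) and Rdh13 (-0.21 to 0.14, without the control mouse 2), and in SC Rbp4 (-0.0055 to 0.21, without the control mouse 2). Of those not called, Rlbp1 in EE was called with DESeq2, without a filter, in a fit of all 12 mice (-0.35) and without the EE-housed control mouse 2 (-0.44), Rdh11 in EE in a fit of all 12 mice (0.25), and Crabp2 in EE without a filter and without the CBP-ifKO 2 (1.95).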
